A study of Mus musculus with 14 samples.

Results

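A set of 8 genes of blood formation, 5 of haematopoietic progenitors (Kit, Cd34, Gata2, Flt3 and Meis1) and 3 of megakaryocytes and platelets (Pf4, Ppbp and Gp9), was followed in liver RNA of mice with a blood-cell deletion of Tet2. They were chosen by symbol, as a readout of blood formation in the liver, with earlier results of these data known. All 8 were found among 51912 gene rows, and all 8 were among the 14638 genes that passed the filter on low counts. Pf4, Ppbp and Gp9 passed it only through the AIH livers, where they were high, as did 1105 of all genes tested, so counts over the 8 are given as a description. Levels are given as CPM, counts relative to the size of the library after scaling by the trimmed mean of M values (TMM).

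The 14 liver libraries came from untreated mice aged 20 weeks, and every animal was Tet2fl/fl. Control livers (n = 4) came from cre- littermates described as healthy. Asymptomatic livers (n = 5) came from vav cre+ mice without symptoms. AIH livers (n = 5) came from vav cre+ mice in which autoimmune hepatitis (AIH) had arisen spontaneously. The vav promoter drives cre in blood cells, so hepatocytes are not the intended target. Replicate numbers only name libraries and pair none of them.

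The sum over genes was 16.0 to 18.9 M counts in each library (M, mega). Hepatocyte transcripts dominated every group, with 10 hepatocyte genes summing to 93631 to 167723 CPM in AIH and 126298 to 167032 CPM in control livers. Tet2 itself stood at 10.7 ± 1.54 CPM in controls (SD, n = 4), 6.82 ± 1.83 CPM in asymptomatic livers (SD, n = 5) and 10.5 ± 3.98 CPM in AIH (SD, n = 5). Of the 5 asymptomatic livers 4 lay below every control, but neither cre+ group passed the test against controls (log2 fold changes of -0.65 ± 0.27 and -0.03 ± 0.27, SE; edgeR adjusted p = 0.435 and 0.945). The counts are per gene and over all liver cells, so they do not measure the deletion itself. Read from Xist and Y-linked counts, 2 of 4 controls, 0 of 5 asymptomatic and 4 of 5 AIH mice were female. AIH 4 was the male. Unaligned reads took 3.23% to 3.77% of the other AIH files, 6.54% of AIH 4, 4.17% to 4.89% of controls, 4.93% of asymptomatic 2 and 7.80% to 9.27% of the other asymptomatic files. Library numbers were 11 to 15 in AIH and 1 to 10 in the other groups, so order and AIH cannot be told apart.

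In adult mice, blood forms in the bone marrow, while the liver is a blood-forming organ before birth and can regain foci of blood formation under stress. Stem and progenitor cells carry the receptor tyrosine kinases Kit and Flt3, which answer to stem cell factor (Kitl) and Flt3 ligand (Flt3l), and the sialomucin Cd34. The transcription factors Gata2 and Meis1 maintain them. Under thrombopoietin (Thpo), which the liver makes, some of them become megakaryocytes, which shed platelets. Platelet alpha granules hold the chemokines Pf4 (platelet factor 4, Cxcl4) and Ppbp (pro-platelet basic protein, Cxcl7), and Gp9 is a subunit of the platelet receptor for von Willebrand factor. Several of the genes have other sources in liver: Cd34, Gata2 and Meis1 are also expressed by endothelial cells, Flt3 by dendritic cells, and Kit and Gata2 by mast cells. These are not all possible sources, and none is named here for Pf4, Ppbp or Gp9. In bulk tissue, more cells of a type and more RNA per cell cannot be told apart. Nor can transcripts held in platelets be told apart from those of megakaryocytes.

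The 3 megakaryocyte genes moved together in most AIH livers, so their promoter sequences are shown first. Pf4 lies on chromosome 5 (GRCm38, 90772435 to 90773383, plus strand), and Ppbp lies beside it on the same strand (90768518 to 90770063), with 2372 bases between the end of Ppbp and the start of Pf4. Gp9 lies on chromosome 6 (87778072 to 87779768, plus strand). The sequences are from RefSeq, build GRCm38.p6, and run 5′ to 3′ from 250 bases before to 50 bases after the start site: chr5:90772185-90772484 for Pf4, chr5:90768268-90768567 for Ppbp and chr6:87777820-87778119 for Gp9, all on the plus strand. Capitals mark every match to GATAA, the core read by GATA factors, and to GGAAG, a core read by ETS factors such as Fli1, on either strand (CTTCC is GGAAG on the other strand).
Pf4 promoter: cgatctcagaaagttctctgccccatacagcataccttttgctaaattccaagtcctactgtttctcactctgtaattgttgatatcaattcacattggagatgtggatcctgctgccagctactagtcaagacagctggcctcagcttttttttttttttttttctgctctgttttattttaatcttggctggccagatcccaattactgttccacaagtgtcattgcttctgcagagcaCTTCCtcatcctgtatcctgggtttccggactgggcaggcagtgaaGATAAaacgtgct
Ppbp promoter: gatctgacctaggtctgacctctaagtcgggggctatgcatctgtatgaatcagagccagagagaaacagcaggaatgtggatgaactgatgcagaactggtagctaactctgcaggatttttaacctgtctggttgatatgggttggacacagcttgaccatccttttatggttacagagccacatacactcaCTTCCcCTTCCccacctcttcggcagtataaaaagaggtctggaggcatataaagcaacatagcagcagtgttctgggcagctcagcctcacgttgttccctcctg
Gp9 promoter: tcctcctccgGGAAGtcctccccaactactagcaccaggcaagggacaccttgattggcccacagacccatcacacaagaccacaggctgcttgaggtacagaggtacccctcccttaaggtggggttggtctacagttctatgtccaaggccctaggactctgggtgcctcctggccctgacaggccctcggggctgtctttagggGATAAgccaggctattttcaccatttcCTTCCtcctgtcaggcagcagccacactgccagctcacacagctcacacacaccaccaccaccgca
GATAA was present at bases 38 to 42 after the start in Pf4 and at -43 to -39 in Gp9, and these letters were not in the Ppbp window. GGAAG on the minus strand was at -9 to -5 in Pf4, at -56 to -52 and at -50 to -46 in Ppbp, and at -16 to -12 in Gp9, which had a further match on the plus strand at -240 to -236. Of 32817 promoters of the same length, 25.4% held GATAA, 71.4% held GGAAG and 17.3% held both, so single matches of this kind are common. A match describes letters and not a bound site.

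AIH livers were compared with controls first. Platelet chemokine and platelet receptor transcripts rose, together with Cd34 and Flt3, while Kit and Meis1 stood near their control levels. By edgeR's quasi-likelihood test with Benjamini-Hochberg adjustment over all tested genes, 5 of the 8 genes were higher and 0 lower, where 21.7% of all genes were called, 15.6% higher and 6.08% lower. Of the 5 progenitor genes, which passed the filter also without the AIH livers, 2 were higher. The median log2 fold change was 2.44 over the 8 genes and -0.013 over all genes tested. The groups did not overlap for 3 of the 8 (Cd34, Flt3 and Pf4), against 19.8% of all genes tested. Fitted changes ran from 3.89 to 5.42 on the log2 scale for Pf4, Gp9 and Ppbp and from 2.37 to 2.51 for Flt3 and Cd34, and the order within both sets differed between settings.

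**Figure D1:**
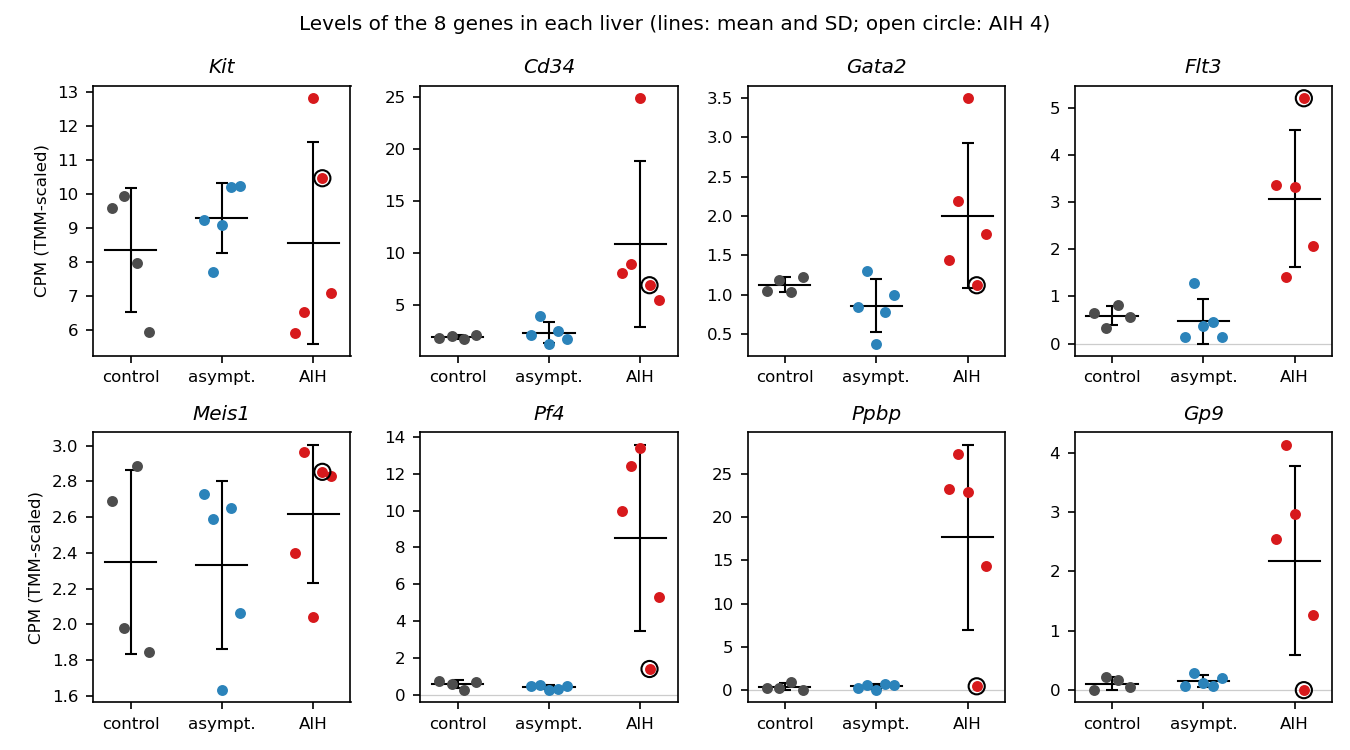
Level of each of the 8 genes in every liver, as TMM-scaled CPM on a linear axis of its own per panel; points are livers, lines are group means with SD, and the open circle marks AIH 4. Pf4, Ppbp and Gp9 are high in AIH 1, 2, 3 and 5 and low in AIH 4, while Kit and Meis1 overlap across the 3 groups.

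Ppbp, cleaved into chemokines that attract neutrophils, held 0.292, 0.283, 0.980 and 0.0559 CPM in controls 1 to 4. In AIH livers 1 to 5 it held 23.3, 27.3, 22.8, 0.448 and 14.4 CPM. 4 AIH livers (1, 2, 3 and 5) were thus above every control, and AIH 4 lay inside the control range. The mean rose from 0.403 ± 0.400 CPM (SD, n = 4) to 17.65 ± 10.7 CPM (SD, n = 5), a log2 fold change of 5.42 ± 0.97 (SE; edgeR adjusted p = 0.00121). Control 3 carried 18 of the 29 control reads of Ppbp, and without it the log2 fold change was 6.35. With sex as a term in the fit it was 4.36, still called.

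Pf4, a chemokine that binds heparin, held 0.760, 0.565, 0.272 and 0.670 CPM in controls 1 to 4 and 9.99, 12.4, 13.4, 1.40 and 5.30 CPM in AIH livers 1 to 5. Every AIH liver was above every control, with AIH 4 the nearest to them. The mean rose from 0.567 ± 0.212 (SD, n = 4) to 8.51 ± 5.06 CPM (SD, n = 5), and the log2 fold change was 3.89 ± 0.57 (SE; edgeR adjusted p = 0.000263). This was 14.9-fold. The smallest adjusted p among the 8 genes in this comparison was that of Pf4.

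Gp9 had 0, 4, 3 and 1 reads in controls 1 to 4 and 53, 85, 51, 0 and 25 reads in AIH livers 1 to 5. In CPM, AIH livers 1, 2, 3 and 5 ran from 1.26 to 4.13 and the highest control was at 0.226, while AIH 4 had no read (3 reads in that library would be 0.168 CPM). The mean was 2.18 ± 1.59 CPM in AIH (SD, n = 5) and 0.111 ± 0.102 CPM in controls (SD, n = 4), with a log2 fold change of 4.20 ± 0.99 (SE; edgeR adjusted p = 0.00727). The Gp9 call depended on the method: limma-voom with quality weights gave 3.36 with an adjusted p of 0.101, and with sex as a term edgeR gave 3.36, still called. Without AIH 1, 2, 3 or 5, Gp9 did not pass the count filter and was not tested.

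Of the progenitor genes, Cd34 and Flt3 rose. Cd34 (chromosome 1, 194938819 to 194961279, plus strand), a surface mucin of progenitors and of capillary endothelium, held 1.75, 1.98, 1.74 and 2.12 CPM in controls 1 to 4. AIH livers 1 to 5 held 8.02, 8.94, 24.9, 6.88 and 5.505 CPM. The groups did not overlap, and AIH 3 stood far above the others. The mean rose from 1.90 ± 0.184 (SD, n = 4) to 10.85 ± 7.95 CPM (SD, n = 5), with a log2 fold change of 2.51 ± 0.45 (SE; edgeR adjusted p = 0.00121), or 1.94 without AIH 3. Fitted on females alone, with 4 AIH and 2 controls, Cd34 was at 2.64 with an edgeR adjusted p of 0.0607. In a fit of all livers by group and sex, chosen after seeing the data, the female difference was 2.66 (edgeR adjusted p = 0.0156). The call of Cd34 within females thus depended on the fit.

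Flt3 (chromosome 5, 147330741 to 147400489, minus strand), the receptor of early lymphoid and myeloid progenitors and of dendritic cells, held 0.643, 0.339, 0.817 and 0.559 CPM in controls 1 to 4. AIH livers 1 to 5 held 3.36, 1.41, 3.32, 5.20 and 2.07 CPM. Every AIH liver was above every control, and AIH 4, lowest for the 3 megakaryocyte genes, was the highest for Flt3. The mean was 3.07 ± 1.45 CPM in AIH (SD, n = 5) against 0.589 ± 0.199 CPM (SD, n = 4), a log2 fold change of 2.37 ± 0.58 (SE; edgeR adjusted p = 0.00904). Fitted on females alone it was 2.096 with an edgeR adjusted p of 0.0815. In the fit by group and sex it was 2.12 between females (edgeR adjusted p = 0.0916).

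Gata2 (chromosome 6, 88193891 to 88207032, plus strand), a zinc finger factor of stem cells, mast cells and endothelium, held 1.03 to 1.23 CPM in the 4 controls and 1.44, 2.19, 3.50, 1.119 and 1.77 CPM in AIH livers 1 to 5. 4 AIH livers (1, 2, 3 and 5) exceeded every control and AIH 4 did not. The log2 fold change of 0.82 ± 0.37 (SE) did not pass the threshold (edgeR adjusted p = 0.127).

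Kit (chromosome 5, 75574916 to 75656722, plus strand), the stem cell factor receptor, held 9.59, 9.95, 7.95 and 5.92 CPM in controls 1 to 4 and 5.91, 6.51, 12.8, 10.5 and 7.07 CPM in AIH livers 1 to 5. The groups overlapped, with means of 8.35 ± 1.84 CPM (SD, n = 4) and 8.55 ± 2.97 CPM (SD, n = 5). The log2 fold change was 0.03 ± 0.24 (SE; edgeR adjusted p = 0.942), with a 95% interval of -0.43 to 0.50, and its sign differed between settings. Meis1 (chromosome 11, 18879817 to 19018985, minus strand), a homeobox factor of stem cells, held 1.84 to 2.89 CPM in controls and 2.04 to 2.96 CPM in AIH. Its log2 fold change was 0.16 ± 0.24 (SE; edgeR adjusted p = 0.686), with a 95% interval of -0.31 to 0.62. For both genes these intervals leave out a doubling, at log2 1, in either direction.

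**Figure D2:**
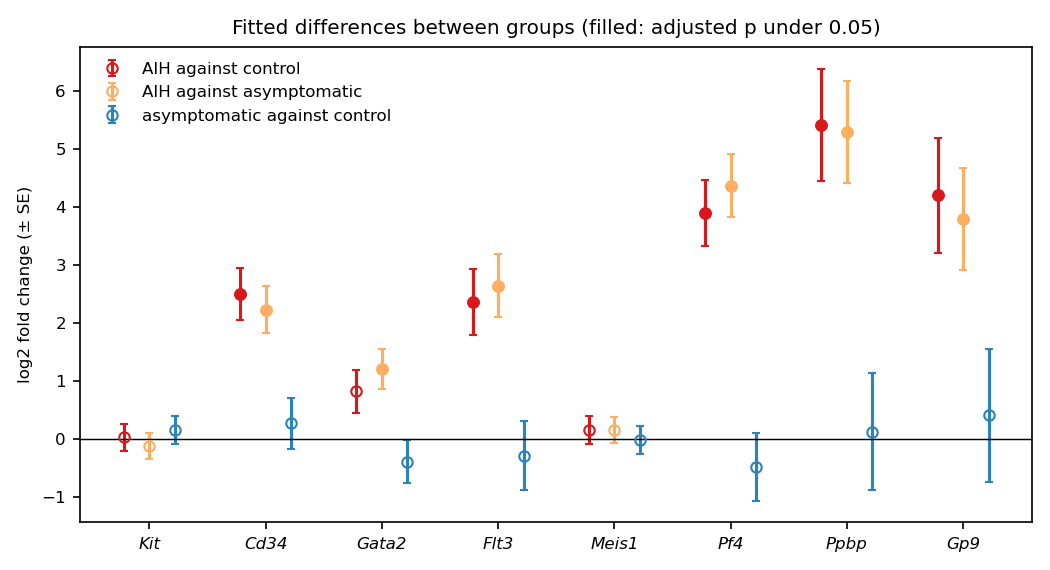
Fitted log2 fold change of each gene (vertical axis, with standard error) in the 3 comparisons, filled where the adjusted p was under 0.05. AIH livers stand above both other groups for Cd34, Flt3, Pf4, Ppbp and Gp9, Gata2 is filled only against asymptomatic livers, and no asymptomatic against control value is filled.

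AIH 4 stood apart from the other 4 AIH livers in the megakaryocyte genes, and not in these alone. Of the gene lists given below, it was the lowest AIH liver in 12 of 14 tested erythroid, 10 of 11 granulocyte precursor and 9 of 12 macrophage genes. Among endothelial and dividing cell genes it was the lowest in 5 of 19 and 3 of 10. The other 4 averaged 21.95 ± 5.42 CPM of Ppbp, 10.3 ± 3.62 CPM of Pf4 and 2.73 ± 1.18 CPM of Gp9 (SD, n = 4), where AIH 4 held 0.448, 1.40 and 0 CPM. The number of Ppbp reads per Pf4 read was 1.70 to 2.71 in AIH livers 1, 2, 3 and 5 and 0.320 in AIH 4. On few reads, this number was 0.0833 to 3.6 in controls and 0.25 to 2.2 in asymptomatic livers, ranges that hold the AIH 4 value. Flt3 went the other way, with 5.20 CPM in AIH 4 and 2.54 ± 0.963 CPM in the other 4 (SD, n = 4). Without AIH 4, the same comparison with controls called 5 of the 8 genes.

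AIH 4 was also the male of its group and had the largest unaligned share in it, and the part of these in the result was not tested. In a fit with a mean for each group and sex, chosen after seeing the data, Pf4 differed by 4.60 ± 0.52 (SE; edgeR adjusted p = 0.000809) between AIH and control females and by 0.96 ± 0.59 (SE; adjusted p = 0.643) between AIH 4 and the 2 control males. The lone male is assumed there to vary like the other groups. The difference between both effects was 3.64 on the log2 scale, with an unadjusted edgeR p of 0.000552, and 0 of 14638 genes passed the adjusted test of such a difference. With 1 AIH male, sex and that animal cannot be told apart. Fitted on females alone, Pf4 was at 4.58 with an edgeR adjusted p of 0.0169.

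The wider megakaryocyte and platelet list has 30 genes, Pf4, Ppbp and Gp9 among them. In AIH against control, 22 of its 28 tested genes were higher and 0 lower, where 15.6% of all genes were higher and 6.08% lower. The median log2 fold change was 2.93, against -0.013 over all genes. Without the 3 genes, 19 of 25 were higher (median 2.66). Of the 28, 17 passed the count filter only through the AIH livers, so these counts are a description. The list summed to 171 to 452 CPM in AIH and 92.6 to 111 CPM in controls, lowest among AIH livers in AIH 4. Among the partners of Gp9 in the von Willebrand factor receptor, Gp1ba stood at 1.46 ± 0.873 CPM in AIH and 0.0962 ± 0.120 CPM in controls (3.802 ± 0.86 on the log2 scale, edgeR adjusted p = 0.00567; 5.02 without control 3). Gp5 rose by 3.37 ± 0.75 (edgeR adjusted p = 0.00507), and Gp1bb, not tested, had 91 reads in AIH and 1 in controls, a pooled ratio of 67.2 (95% counting interval 11.8 to 2683). Itga2b, the platelet integrin alpha IIb (CD41), rose by 2.27 ± 0.45 (edgeR adjusted p = 0.0024).

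Gata1, the GATA factor of megakaryocytes and red cells, had 38, 195, 74, 2 and 58 reads in AIH livers 1 to 5 and 2 in the 4 controls together (pooled ratio 135, 95% counting interval 37.2 to 1123; edgeR adjusted p = 0.00123). Plek, which rose by 3.01 ± 0.29 (edgeR adjusted p = 1.61e-05), and Fermt3, which rose by 2.84 ± 0.31 (edgeR adjusted p = 3.09e-05), are platelet genes that leukocytes also express. AIH 4 was the lowest of the 5 AIH livers in 25 of the 28 tested genes of this list. In the 23 genes where AIH 1, 2, 3 and 5 all exceeded every control, AIH 4 did so in 10. With 4 AIH livers fewer genes passed the count filter: without AIH 1, 2, 3 or 5 the count was 11 to 13 of 17 or 18 tested, and without AIH 4 it was 24.

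**Figure D3:**
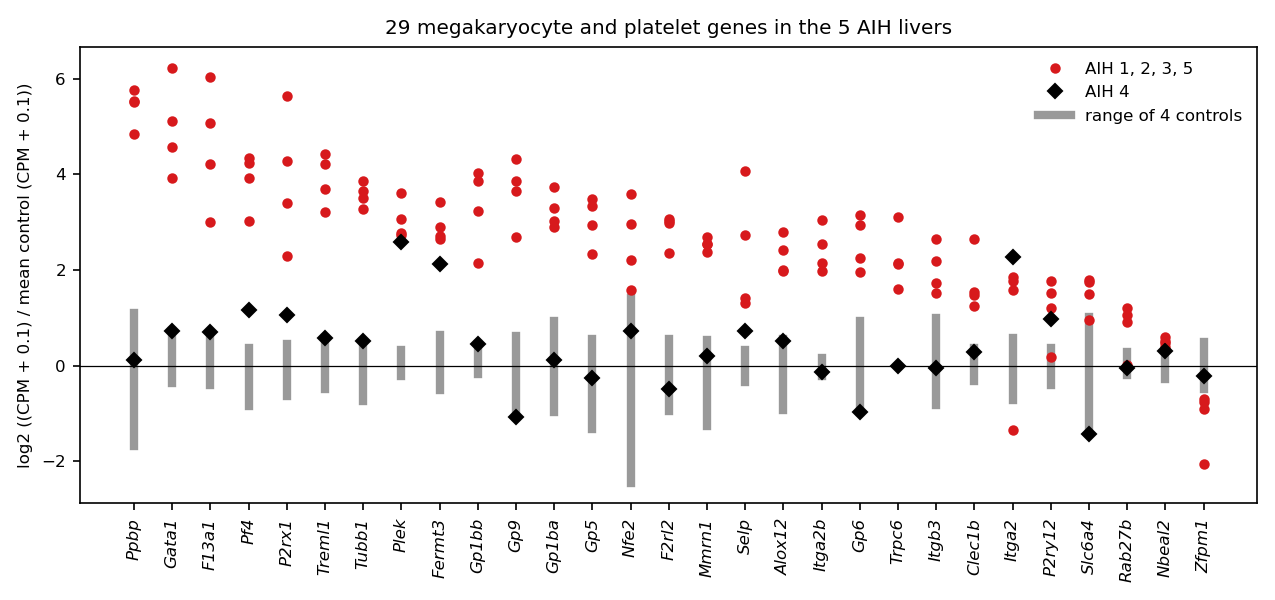
Genes of the megakaryocyte and platelet list (29 of the 30; Gp1bb and Trpc6 were not tested), as log2 of CPM plus 0.1 over the mean control CPM plus 0.1; red points are AIH 1, 2, 3 and 5, black diamonds AIH 4, and grey bars the range of the 4 controls. The red points lie above the bars for most genes, while the diamonds lie within or near them for many, apart from Plek, Fermt3 and Itga2.

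The ligands and homing genes of the niche were read next. Of 8 tested genes of that list, 2 were higher and 0 lower, or 25%, against the 15.6% of all genes called higher. Kitl stood at 7.80 ± 3.19 CPM in AIH and 7.82 ± 1.84 CPM in controls, a log2 fold change of -0.01 ± 0.34 (SE; edgeR adjusted p = 0.993). Flt3l was at 0.58 ± 0.34 (adjusted p = 0.246), Thpo at -0.19 ± 0.26 (adjusted p = 0.663) and the homing chemokine Cxcl12 at -0.35 ± 0.22 (adjusted p = 0.281), all by edgeR. None of these 4 passed the threshold. Cxcr4, the receptor of Cxcl12 on progenitors and most leukocytes, rose from 1.38 ± 0.390 CPM (SD, n = 4) to 31.7 ± 16.8 CPM (SD, n = 5; edgeR adjusted p = 1.81e-05). Vcam1, an adhesion molecule of endothelium and macrophages that holds progenitors, rose by 2.35 ± 0.42 (edgeR adjusted p = 0.0012).

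Among 18 tested stem and progenitor transcription factors, 9 were higher and 1 lower, with a median log2 fold change of 1.48. Over all genes tested in AIH against control, 15.6% were higher and 6.08% lower, which is the share to set beside the lists below too. Gata2 and Meis1 are on this list and were not called. Runx1, needed for blood stem cells and megakaryocytes, rose by 2.51 ± 0.40 (edgeR adjusted p = 0.000493), and Myb, a factor of immature progenitors, had 6 reads in controls and 280 in AIH (5.04 ± 0.75, edgeR adjusted p = 0.000322; 4.44 without AIH 3). Myb was above every control in all 5 AIH livers, AIH 4 included, with 1.57 CPM there and 0.170 CPM in the highest control. Tal1, a factor of stem, red and megakaryocytic cells, held 5.33, 18.4, 4.55, 1.01 and 15.5 CPM in AIH livers 1 to 5 and 1.08 ± 0.191 CPM in controls (SD, n = 4; edgeR adjusted p = 0.00302). AIH 4 was again at the control level for Tal1. Ikzf1, Fli1 and Lyl1, which mature leukocytes also express, rose by 2.83 ± 0.25, 1.75 ± 0.22 and 3.10 ± 0.42 (edgeR adjusted p = 1.34e-05, 9.46e-05 and 0.000164). The gene that fell was Hlf, at -0.96 ± 0.24 (edgeR adjusted p = 0.0119); hepatocytes also express it.

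Of 19 tested stem and progenitor surface genes, 13 were higher and 0 lower (median 2.36), and 11 of 16 (median 2.33) without Kit, Cd34 and Flt3. Csf2rb and Csf2rb2, receptor chains for interleukin-3 and related cytokines, rose by 2.31 ± 0.28 and 2.79 ± 0.29 (edgeR adjusted p = 5.6e-05 and 2.26e-05). Cd48 and Slamf1, both surface proteins of the SLAM family that lymphocytes share with progenitors, rose by 2.76 ± 0.44 and 3.18 ± 0.53 (edgeR adjusted p = 0.000575 and 0.000786). Within females, 4 of 20 tested genes of this list were called, where 839 of all 15001 genes tested were called.

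Genes of other blood lineages were also called. Erythroid genes were higher in 11 of 14 cases and lower in 0 (median 2.54), and only 4 were called with sex as a term, or without AIH 2 or AIH 5. Their sum was 229 to 393 CPM in controls, and AIH 3 and AIH 4 lay inside that range at 381 and 247 CPM, while AIH 1, 2 and 5 held 816, 3413 and 1466 CPM. All 5 asymptomatic livers, at 399 to 925 CPM, were above every control in this sum. The lowest of them, asymptomatic 2, was close to the highest control, at 393 CPM. Between these groups 0 of 14 tested erythroid genes were called, and 2.43% of all genes tested did not overlap. Slc4a1, the red cell anion exchanger, had an adjusted p of 0.0628 with sex as a term. Granulocyte precursor genes were higher in 10 of 11 cases (median 8.68, or 7.70 with genes at 0 in controls set at their bound), and 10 of the 11 passed the count filter only through the AIH livers. Their summed level was 19.4 to 1206 CPM in AIH, lowest in AIH 4, and 1.87 to 7.54 CPM in controls. This list also holds genes of later neutrophils, such as Ltf and S100a8, so it does not tell precursors from mature cells. All 10 dividing cell genes were higher, with 126 to 224 CPM in AIH against 10.7 to 18.2 CPM in controls. Lymphoid precursor genes were higher in 4 of 5 tested cases, namely Cd24a, Il7r, Pax5 and Ebf1, which mature leukocytes also express. Rag1 and Rag2, which recombine antigen receptor genes, were not tested and had no read in any control or asymptomatic liver. Neither was named before its values were seen. Of the 12 genes of this list, 3 to 7 were at 0 in AIH livers and 4 to 6 in controls.

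**Figure D4:**
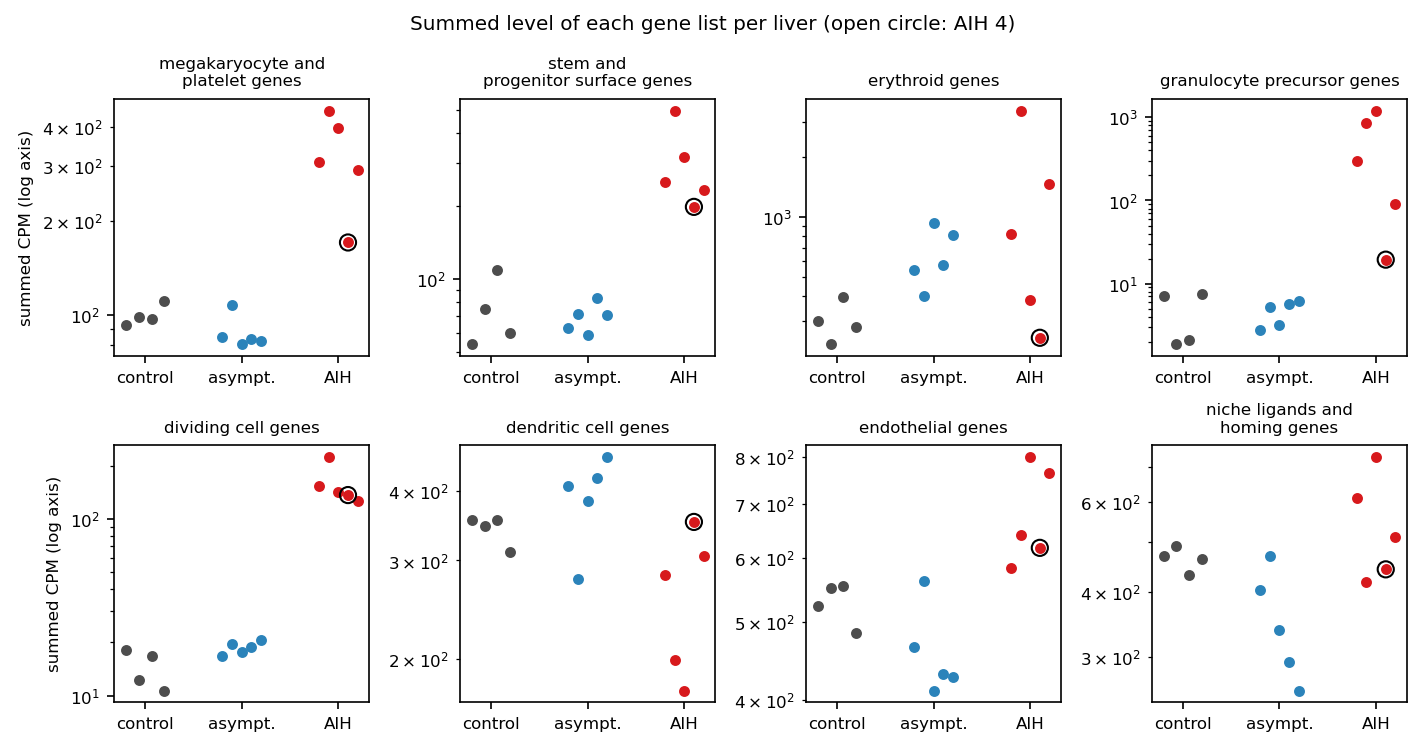
Summed CPM of 8 gene lists in each liver, on log axes; the open circle marks AIH 4. Megakaryocyte, progenitor surface, granulocyte precursor and dividing cell genes are higher in all 5 AIH livers than in any control, and the dividing cell genes of AIH 4 lie among those of the other AIH livers.

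Markers of the other cells that express these genes were read beside them. Endothelial cells are another, though not the only other, home of Cd34, Gata2 and Meis1. Endothelial genes were higher in 4 of 19 cases (21.1%, against 15.6% of all genes, with a median of 0.30). They summed to 583 to 801 CPM in AIH and 484 to 555 CPM in controls, with no gene at 0 in these livers. Dendritic cell genes, which go with Flt3, were higher in 6 of 10 tested cases (median 1.95), or 5 of 9 (median 1.54) without Flt3, which is on this list. Their sum of 175 to 352 CPM in AIH overlapped the 311 to 355 CPM of controls. Kmo, a kynurenine pathway enzyme on this list, made up 216 ± 71.7 CPM of it in AIH and 328 ± 21.6 CPM in controls. Itgax (CD11c) rose by 4.33 ± 0.51 and Xcr1, of cross-presenting dendritic cells, by 2.92 ± 0.49 (edgeR adjusted p = 5.28e-05 and 0.000747). Of the mast cell and basophil genes 4 were tested, of which Kit and Gata2 were not called and the other two, Hdc (histidine decarboxylase) and the basophil protease Prss34, were higher, by 2.28 ± 0.57 and 6.89 ± 1.57 (SE; edgeR adjusted p = 0.0107 and 0.0103). The mast cell tryptase Tpsab1 had no read in any control or AIH liver, but other genes of this list gained reads. Its 13 genes, Kit and Gata2 among them, summed to 13.99 to 50.4 CPM in AIH and 9.05 to 13.7 CPM in controls. AIH 3 was the highest and AIH 2 the next, at 32.1 CPM. Of the 13 genes, 2 to 5 were at 0 in AIH livers and 5 to 9 in controls. Stellate cell and fibroblast genes were higher in 8 of 15 cases (median 1.51), or 5 without AIH 3, the liver highest in Cd34. Their sum was 286 to 851 CPM in AIH, highest in AIH 3, and 179 to 260 CPM in controls. Macrophage genes were higher in 10 of 12 cases, cholangiocyte genes in 1 of 7 (14.3%), and hepatocyte genes in 0 of 10 with 1 lower. The part of these cells in the levels of the 8 genes was not tested.

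Asymptomatic livers were compared with controls next, to ask whether the genes move with the deletion in mice without symptoms. None of the 8 passed the threshold, where 0% of all genes did, and the groups overlapped for all 8, where 2.43% of all genes did not overlap. By edgeR 0 of 14638 genes were called, with 1542 at an unadjusted p under 0.05, none of them among the 8 in this fit, and DESeq2 and limma-voom, which called 118 and 1299 genes, also called 0 of the 8. Pf4 held 0.455, 0.529, 0.251, 0.323 and 0.466 CPM in asymptomatic livers 1 to 5, all below its highest control, with a log2 fold change of -0.47 ± 0.59 (95% interval -1.63 to 0.68; edgeR adjusted p = 0.804). Ppbp had 3, 11, 1, 11 and 9 reads (0.13 ± 1.01, interval -1.85 to 2.1), and Gp9 had 1, 5, 2, 1 and 3 (0.41 ± 1.15, interval -1.85 to 2.67). Both values depended on the terms of the fit, in a group that was all male. With sex as a term, Ppbp was at 2.95 ± 1.01 and Gp9 at 4.42 ± 1.22 (SE; edgeR adjusted p = 0.555 for both), with unadjusted edgeR p of 0.011 and 0.00276. With the unaligned share as a term they were at 2.26 ± 1.45 and 2.93 ± 1.32 (SE), with unadjusted edgeR p of 0.142 and 0.044. Neither passed the adjusted test in either fit. Within males Ppbp was at 1.32 ± 0.98 (edgeR adjusted p = 0.737), and Gp9 did not pass the count filter there. With so few reads, the printed intervals hold for the fit without these terms only.

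The progenitor genes in asymptomatic livers also overlapped the controls. Kit was at 9.30 ± 1.04 CPM, Cd34 at 2.29 ± 1.02, Gata2 at 0.858 ± 0.335, Flt3 at 0.477 ± 0.479 and Meis1 at 2.33 ± 0.471 CPM (SD, n = 5). Cd34 held 2.08, 3.94, 1.255, 2.46 and 1.73 CPM and Flt3 held 0.130, 1.29, 0.376, 0.452 and 0.133 CPM in asymptomatic livers 1 to 5. By edgeR, the adjusted p of the 8 genes ran from 0.736 to 0.990. Asymptomatic 2, the asymptomatic library with a low unaligned share, was the highest of its group for both Cd34 and Flt3. In each of the 15 gene lists 0 genes passed the threshold in this comparison.

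The last comparison set AIH livers against asymptomatic ones, which carry the same alleles; it shares the AIH libraries with the first. The same 5 genes and Gata2 were higher, 6 of 8 in all and 0 lower, where 29.8% of all genes were called, 19.1% higher and 10.7% lower. The groups did not overlap for Cd34, Flt3 and Pf4, 3 of the 8, against 16.9% of all genes. Log2 fold changes were 2.23 ± 0.41 for Cd34 (adjusted p = 0.00102), 2.65 ± 0.54 for Flt3 (0.00237), 4.37 ± 0.54 for Pf4 (4.78e-05), 5.29 ± 0.88 for Ppbp (0.0005) and 3.79 ± 0.88 for Gp9 (0.00513), all by edgeR. Gata2 rose from 0.858 ± 0.335 to 2.002 ± 0.924 CPM (1.21 ± 0.35, edgeR adjusted p = 0.018), and without AIH 3 its adjusted p was 0.0537. Without asymptomatic 2, Flt3 was at 3.45. Kit was at -0.12 ± 0.22 and Meis1 at 0.17 ± 0.22, neither called (edgeR adjusted p = 0.7103 and 0.606).

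All asymptomatic mice were male and 4 of 5 AIH mice female, and the unaligned shares of these groups overlapped only through AIH 4 and asymptomatic 2. With sex as a term, 3 of the 8 genes were called, namely Cd34 at 1.95, Flt3 at 3.07 and Pf4 at 3.56 (edgeR adjusted p = 0.0394, 0.00726 and 0.00991). Ppbp was then at 1.41 (adjusted p = 0.453), Gp9 at -1.06 (0.592) and Gata2 at 0.86 (0.318). With the unaligned share as a term 0 of the 8 were called, with values of 2.57 for Pf4 (edgeR adjusted p = 0.16) and 2.35 for Flt3 (0.0712). Of the 28 tested megakaryocyte and platelet genes, 26 were higher in this comparison, 5 with sex as a term and 2 with the unaligned share.

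Per kilobase of exon, the order of the 8 genes differed between groups. In controls Kit led with 0.937 CPM per kb, followed by Pf4 with 0.786, Ppbp with 0.372, Cd34 with 0.261, Meis1 with 0.223, Gata2 with 0.209, Gp9 with 0.126 and Flt3 with 0.0954. No gene exceeded the next in this order in all 4 controls, so these neighbours did not differ beyond their spread. In AIH the order was Ppbp at 16.3, Pf4 at 11.8, Gp9 at 2.48, Cd34 at 1.49, Kit at 0.960, Flt3 at 0.498, Gata2 at 0.371 and Meis1 at 0.249 CPM per kb. There, Pf4 exceeded Gp9 and Kit exceeded Flt3 in all 5 livers, Ppbp exceeded Pf4 and Gata2 exceeded Meis1 in 4, and the other neighbours were in this order in 3. In asymptomatic livers Kit led again, with 1.04 CPM per kb, and exceeded Pf4 in all 5.

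The genes most like each of the 8 in profile were found by the root mean square difference in log2 CPM over the 14 libraries, each gene centred on its mean. Nearest to Ppbp were F13a1 (0.93), Itgb2l (0.94) and Gata1 (0.96), where Ppbp itself varied with an SD of 2.62. Nearest to Gp9 were Apcs (0.59), Ccl6 (0.65) and the platelet tubulin Tubb1 (0.69), with an SD of 1.74 for Gp9. Nearest to Pf4 were Vcan (0.51), Padi4 (0.59) and Ccr2 (0.63), with an SD of 1.88. Ccr2 is also on the macrophage list.

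For the progenitor genes the nearest were found in the same way. Those of Cd34, with an SD of 1.16, were Ccdc80 (0.32), Loxl2 (0.35) and Pcolce (0.41), all extracellular matrix genes. Those of Flt3, with an SD of 1.36, were the collagen gene Col1a2 (0.47), the oxysterol receptor Gpr183 (0.48) and St8sia4 (0.49). Gata2 was nearest to Man1c1, Rragd and Rhoj (0.27 to 0.29). Kit and Meis1 varied little themselves (SD 0.32 and 0.26), and the genes nearest to them (Pzp, Pom121 and Pgk1, and Zfp87, Ints9 and Tbc1d2b) differed from them by 0.18 to 0.22. Between the 8 genes themselves, Meis1 and Kit (0.44) were nearest, followed by Gata2 with Meis1 (0.63) and with Cd34 (0.70). The difference between Pf4 and Gp9 was 0.90, between Pf4 and Cd34 0.99, and between Pf4 and Ppbp 1.17.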

How the data were processed

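Total RNA of a piece of the left liver lobe was sequenced in 14 mice. What the authors deposited are raw read counts, 1 whole number per Ensembl gene and library, with no normalization. Per the submitters' processing notes, the tools were HISAT2 2.1.0, HTSeq 0.9.0, cutadapt 1.12, FastQC 0.11.5, R 4.0 and edgeR, named with no roles or order, and the builds GRCh38 and GRCm38. The gene IDs are mouse. The annotation release and the strand setting are not given in the sources used here, so reads of overlapping antisense genes cannot be told apart (Gm16897 over Cd34 held 6 reads in all libraries and Gm26597 over Flt3 held 1). The 5 HTSeq summary rows stayed out of library sizes and tests. Symbols and positions came from a GENCODE annotation of GRCm38, which named 51633 IDs. Promoters came from RefSeq.

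Genes were filtered with filterByExpr, scaled by TMM and tested with edgeR 4.0.16 (R 4.3.3), by the quasi-likelihood F-test, two-sided, in 1 fit of 14 libraries with a mean per group, Benjamini-Hochberg adjusted over 14638 genes with a threshold of 0.05. Standard errors were derived from the F statistic. DESeq2 1.42.0, limma 3.58.1 (voom), RLE factors, library totals alone, other filters, a robust spread, only the 2 groups compared, terms for sex and unaligned share, fits within a sex and each library left out were alternatives. A pooled ratio is the ratio of a gene's summed reads between groups over library size; its interval, and the limit of 3 reads set for a count of 0, cover counting error only. The labels do not say outright that each library is a separate animal, so p-values measure the spread between these libraries. Within a group they correlated at r = 0.899 to 0.986, and no pair agreed within sampling noise (smallest chi-square per gene 15.0).

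The 8 genes, the gene lists and the tests were chosen with earlier results of these data known, and no list was tested as a set. Named genes were the 8 genes, Tet2, textbook partners of the 8, up to 4 called genes of each list with the smallest p in AIH against control, and the 3 genes nearest in profile to each of the 8 (mean CPM of at least 1, no gene models or receptor segments). Not all of these are named, and 1 gene of the megakaryocyte and platelet list counts in its totals but is not reported here by itself. Hlf, Kmo, Rag1, Rag2, Tpsab1, Itga2 and Trpc6 were named after their values were seen. On simulated counts for AIH against control (13834 genes), 71 of 91 genes changed 4-fold, 24 of 93 changed 2-fold and 3 of 13650 unchanged genes were called.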

Additional observations from a re-analysis of the deposited data

Results flagged for a closer look

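A test of the gap between an extreme liver and its nearest neighbour, relative to the range of its group, was run on the 8 genes in 3 groups, 24 groups of values in all, and marked 2 livers. Chance marks about 1 in 20. Cd34 in AIH 3 stood at 24.9 CPM, with the next AIH liver at 8.94 CPM and a gap of 0.823 of the range. AIH 3 was also the highest AIH liver for Kit, Gata2 and Pf4. Flt3 in asymptomatic 2 stood at 1.29 CPM, with the next asymptomatic liver at 0.452 CPM and a gap of 0.723 of the range.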

How the results depend on the processing

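No paired analysis was possible because replicate numbers follow accession order and pair no libraries. In AIH against control, 3174 genes and 5 of the 8 were called, with 2350 to 3425 genes and 4 to 5 of the 8 when each library was left out. Within females only these were 839 and 3, and for AIH 4 against control males 447 and 0. In AIH against asymptomatic, 4355 genes and 6 of the 8 were called (3317 to 4649 and 4 to 6 with a library left out), 1372 and 3 with sex as a term, 562 and 0 with the unaligned share as a term, and 812 and 1 for AIH 4 against asymptomatic males. The latter was Flt3. In asymptomatic against control, 0 genes were called by edgeR (0 to 13 with a library left out, 13 without asymptomatic 2), 118 by DESeq2 and 1299 by limma-voom, and 0 of the 8 in each. Comparisons of AIH 4 with males, and counts of list genes under each setting, were chosen after seeing the data.

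Signs changed in uncalled values and, for AIH 4 alone or with sex as a term, in Gp9, Slc4a1, Rhag and Itga2b, which were called over all livers. In AIH against control, Kit was at -0.0040 with no count filter, -0.18 by limma-voom and -0.17 within females, Kitl at 0.12 with library totals alone, 0.0088 with a minimum of 1 CPM in 4 libraries, 0.070 with sex, 0.042 with the unaligned share and 0.30 for AIH 4, and Tet2 at 0.10 with library totals alone. For AIH 4 against control males Gata2 was at -0.028, Gp9 at -2.32, Slc4a1 at -0.48, Rhag at -3.17, Thpo at 0.64 and Itga2b at -0.12. In asymptomatic against control, Meis1 was at 0.0081 with no filter, 0.15 by limma-voom, 0.0059 with the unaligned share and 0.033 within males, and with the unaligned share Kit was at -0.14, Gata2 at 0.23, Flt3 at 0.0049 and Pf4 at 0.88. In AIH against asymptomatic, Kit was at 0.050 with library totals alone, 0.21 with the unaligned share and 0.17 for AIH 4, and Gp9 at -1.06 with sex and -4.48 for AIH 4. With a library left out, signs also changed for Kit (-0.16 to 0.15), Kitl (-0.16 to 0.22), Tet2 (-0.21 to 0.082) and Thpo (-0.42 to 0.090) in AIH against control, and for Cd34 (-0.015 to 0.43), Meis1 (-0.095 to 0.11) and Ppbp (-0.21 to 1.06) in asymptomatic against control. The cause of these changes was not tested. Low depth limits Gp9 and Ppbp outside AIH, where no library held over 18 reads of either.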
